A study of Mus musculus with 11 samples.

Results

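The 6 libraries described here were made from whole GL261 tumours, out of 11 RNA-seq libraries in the series, and they compare tumours that grew in mice with and without Rheb1 in Cx3cr1-expressing cells. They were chosen by their labels alone, which name the tissue as bulk tumour and the genotype as WT or Rheb1 KO. The 3 Rheb1 fl/fl mice (labelled WT, replicates 35, 38 and 110) carried the floxed exon 3 of Rheb1 on both alleles and no Cre. The 3 Cx3cr1-Rheb1 Δ/Δ mice (labelled Rheb1 KO, replicates 26, 36 and 37) also carried Cx3cr1-CreERT2, a tamoxifen-activated recombinase knocked into the Cx3cr1 gene, so that the recombinase and the loss of a functional Cx3cr1 allele came together in this group. All mice were C57BL/6, and by the stated protocol tumours were initiated by intracranial injection of GL261 cells at 6 weeks of age, 3 weeks after tamoxifen, and were collected 3 weeks later. The driver also acts in some of the tumour-associated macrophages that come from bone marrow. The GL261 cells themselves, a mouse glioma line that grows in immunocompetent C57BL/6 brain, kept their own Rheb1 in either group. Tumour tissue was scraped from slides of formalin-fixed, paraffin-embedded blocks, which can hold adjoining brain, and nothing states that 2 libraries came from 1 mouse.

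Rheb is the small GTPase that activates mTOR complex 1, the kinase complex that couples nutrients and growth factors to protein synthesis, lipid synthesis and cell growth. A GL261 tumour holds glioma cells beside microglia, macrophages, lymphocytes, vessels with endothelial and mural cells, and, at its margin, neurons, astrocytes and myelinating oligodendrocytes. In bulk tissue, fewer cells of a type and less RNA per cell cannot be told apart. The results below follow the non-immune compartments and the most abundant transcripts. For these the deposited counts were scaled to CPM by library size and edgeR's TMM factors.

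The libraries held 14940787 to 21991348 counts. Rheb, on the minus strand of chr5:24802823-24842624 (GRCm38), was at 348, 235 and 329 CPM in Rheb1 fl/fl tumours and at 225, 125 and 146 CPM in Cx3cr1-Rheb1 Δ/Δ tumours (replicates 26, 36 and 37). Every Δ/Δ tumour was below every fl/fl tumour, as held for 9.23% of all tested genes. The log2 fold change of Rheb was -0.88 (SE 0.32), with an adjusted p of 0.426 in edgeR's quasi-likelihood test. The replicate 37 library stood apart from the other Δ/Δ libraries. The counts of Cx3cr1, the microglial chemokine receptor that houses the recombinase, were 1100, 1944 and 2230 in fl/fl tumours, 7 and 6 in Δ/Δ replicates 26 and 36, and 513 in replicate 37. Among the fl/fl libraries, replicate 35 held 10643 counts of the X-inactivation RNA Xist and 0 of the Y-linked Ddx3y, while the other 5 libraries held at most 5 of Xist and at least 956 of Ddx3y. Of the tested genes, 2.907 to 3.805% were at 0 in fl/fl libraries and 3.048 to 6.043% in Δ/Δ libraries, with the highest share in replicate 26. The part of these differences in the results was not tested, and values without replicate 37 are given below.

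Of 50686 genes, 17028 passed the filter on low counts. With edgeR's quasi-likelihood test, 0 genes (0.0% in each direction) changed by 1.5-fold or more with a p under 0.05 after Benjamini-Hochberg adjustment, and the smallest adjusted p was 0.0805, for Gbp4. At an unadjusted p under 0.05, 650 genes were higher in Δ/Δ tumours (3.82%) and 883 lower (5.19%). At an unadjusted p of at most 0.02 with at least 1.5-fold, termed here the nominal threshold, 289 were higher (1.7%) and 510 lower (3.0%). With libraries scaled to an equal mean log CPM this split became 438 higher and 395 lower, while the median log2 fold change of all genes moved from 0.0034 to 0.15. edgeR's likelihood ratio test, which takes the dispersion as known, called 123 genes higher (0.722%) and 260 lower (1.53%), and DESeq2 called 140 and 330.

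When testing was limited to the 12636 genes that had 10 or more counts in each of the 6 libraries, the quasi-likelihood test called 8 genes higher (0.0633%) and 54 lower (0.427%). Of the 8 called higher, 0 belonged to the immune lists and 5 to the other lists described below. These 8 were Per1, Cry2, Cirbp, Klf9, Rpph1, Odf2, B930036N10Rik and Gm43359. Of the 54 called lower, 10 belonged to the immune lists, 3 to other lists (Fn1, Fabp7 and Hmga2), and 41 to none. The genes of this set that lie outside the fixed rule for naming genes were named after their values were seen. Without replicate 37 and with all 17028 genes, the quasi-likelihood test called 2 genes higher, Per1 and Cry2, and 16 lower. Of these 16, 7 belonged to the immune lists, 1 (Hmga2) to another list and 8 to none. The immune lists are short. In both sets the lower genes in no list include genes of MHC class II, interferon responses and myeloid cells.

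**Figure D1:**
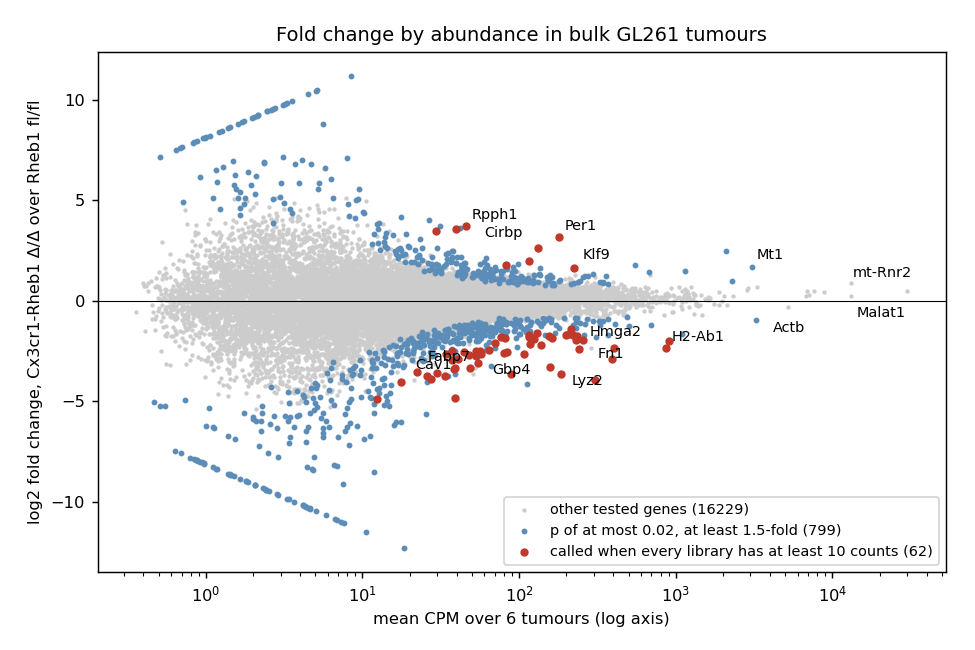
Log2 fold change (Cx3cr1-Rheb1 Δ/Δ over Rheb1 fl/fl) of 17028 tested genes against their mean CPM over the 6 tumours (log axis), with the 799 genes at the nominal threshold in blue and the 62 called when every library had 10 or more counts in red. The 62 lie between about 10 and 1000 CPM, and the spread of the fold changes narrows toward abundant genes.

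The genes called higher included Per1 and Cry2 of the circadian clock, the cold-inducible Cirbp and the glucocorticoid-responsive Klf9. The mammalian clock is a feedback loop in which CLOCK and BMAL1 (Arntl) bind E-box sequences and switch on the Per and Cry genes, whose proteins then repress them. Glucocorticoids bind the glucocorticoid receptor, which activates genes such as Per1, Fkbp5, Klf9 and the metallothioneins Mt1 and Mt2. Metallothioneins, small metal-binding proteins, also respond to zinc through metal response elements. The promoters of Per1, Ciart, Mt1 and Mt2 are shown because all 4 genes passed the nominal threshold upward and these motifs of their regulation are well known. The 300-base windows (250 bases before to 50 after a RefSeq transcript start, GRCm38.p6) lie at chr11:69098699-69098998 on the plus strand for Per1 (the upstream of 2 windows), chr3:95882179-95882478 on the minus strand for Ciart, chr8:94178839-94179138 on the plus strand for Mt1 and chr8:94172368-94172667 on the plus strand for Mt2. Capitals mark matches to the E-box CACGTG, to the metal response element core TGCACNC or TGCGCNC, and to the glucocorticoid receptor palindrome (GNACA and TGTNC, 3 bases apart), on either strand, and no 2 matches overlap.
Per1: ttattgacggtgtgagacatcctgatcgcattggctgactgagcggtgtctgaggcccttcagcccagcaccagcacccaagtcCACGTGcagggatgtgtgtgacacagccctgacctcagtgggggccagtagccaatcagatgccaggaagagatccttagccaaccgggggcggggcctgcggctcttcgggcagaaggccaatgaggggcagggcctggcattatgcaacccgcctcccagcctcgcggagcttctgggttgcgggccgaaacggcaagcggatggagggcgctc
Ciart: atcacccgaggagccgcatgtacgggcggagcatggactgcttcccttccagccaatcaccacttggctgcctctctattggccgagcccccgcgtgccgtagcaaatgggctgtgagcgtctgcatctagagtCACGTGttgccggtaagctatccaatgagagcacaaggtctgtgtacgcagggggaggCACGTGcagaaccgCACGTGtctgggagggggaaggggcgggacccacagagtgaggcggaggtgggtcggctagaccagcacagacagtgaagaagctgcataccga
Mt1: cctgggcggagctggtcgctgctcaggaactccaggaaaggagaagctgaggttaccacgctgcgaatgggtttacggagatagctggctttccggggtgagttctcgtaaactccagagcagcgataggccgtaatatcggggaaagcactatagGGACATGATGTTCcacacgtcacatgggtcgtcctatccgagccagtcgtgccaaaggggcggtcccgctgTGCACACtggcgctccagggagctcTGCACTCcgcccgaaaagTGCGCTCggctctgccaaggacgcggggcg
Mt2: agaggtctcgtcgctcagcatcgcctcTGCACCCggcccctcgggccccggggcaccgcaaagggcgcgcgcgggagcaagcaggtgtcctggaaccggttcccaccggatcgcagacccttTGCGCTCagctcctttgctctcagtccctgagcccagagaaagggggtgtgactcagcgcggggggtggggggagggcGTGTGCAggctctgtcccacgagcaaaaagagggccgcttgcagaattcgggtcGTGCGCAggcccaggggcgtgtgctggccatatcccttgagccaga
The Per1 window held 1 E-box and the Ciart window 3. The Mt1 window held 3 metal response element cores and 1 glucocorticoid receptor palindrome, and the Mt2 window 4 cores and 0 palindromes. Among all 32851 RefSeq windows of this length, 7.15% held the E-box, 25.7% the metal response element core and 0.475% the palindrome. E-boxes were found in 6 of 21 windows of the clock genes (28.6%), in Bhlhe41, Ciart, Cry1, Per1 and Tef. The palindrome was found in 2 of 19 windows of the glucocorticoid list (10.5%), in Mt1 and Sgk1. In the same list the metal response element core was found in 4 of 19 windows (21.1%), below the 25.7% of all windows. These 4 were in Ddit4, Mt1, Mt2 and Sgk1.

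Per1, a repressor of the clock that also responds acutely to glucocorticoids, was at 61.5, 22.3 and 23.5 CPM in fl/fl tumours and at 311, 380 and 285 CPM in Δ/Δ tumours. In counts the lowest Δ/Δ tumour was thus several times above the highest fl/fl tumour. The margin was smaller in the deposited TPM, at 20.5, 6.40 and 10.9 against 69.1, 37.4 and 53.7. The log2 fold change in counts was 3.18 (SE 0.44). Its adjusted p was 0.101 in the quasi-likelihood test over all genes and 0.00284 when every library had 10 or more counts. Cry2, the partner repressor, was at 47.2, 41.6 and 53.1 CPM in fl/fl tumours and at 216, 256 and 83.9 CPM in Δ/Δ tumours, with replicate 37 nearest the fl/fl level. The log2 fold change of Cry2 was 1.97 (SE 0.42) with all libraries and 2.32 without replicate 37. Ciart, a further repressor of CLOCK and BMAL1, was at 2.67, 3.41 and 8.86 CPM against 70.8, 44.8 and 9.53 CPM, so that replicate 37 nearly met the highest fl/fl tumour. For Ciart the log2 fold change was 3.07 (SE 0.84), with an adjusted p of 0.229 in the quasi-likelihood test.

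Of 17 clock genes tested, 15 had a positive log2 fold change and the median was 0.65, beside 8547 of 17028 positive (50.2%), 8481 negative (49.8%) and a median of 0.0034 over all genes. In 5 of the 17, all Δ/Δ tumours lay above all fl/fl tumours, which held for 1331 of all tested genes (7.82%). These were Per1, Cry2, Ciart, Per2 and Tef. Per2 was at 10.01, 10.02 and 0.624 CPM in fl/fl tumours and at 32.5, 15.02 and 23.5 CPM in Δ/Δ tumours, a log2 fold change of 1.78 (SE 0.97) that missed the nominal threshold. Tef, a clock output factor, was at 80.2, 65.7 and 91.2 CPM against 130, 166 and 93.4 CPM. The most abundant member, the nuclear receptor gene Rora, had similar means of 218 ± 44.8 and 227 ± 10.2 CPM (SD, n = 3). The median of the clock list per tumour, taken around each gene's mean, was -0.31, -0.23 and -0.13 in fl/fl tumours, 0.54 and 0.60 in Δ/Δ replicates 26 and 36, and -0.10 in replicate 37.

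Cirbp, an RNA-binding protein induced by mild cold whose level follows the daily temperature rhythm, was at 20.2, 35.1 and 55.2 CPM in fl/fl tumours and at 186, 259 and 237 CPM in Δ/Δ tumours. The groups did not overlap, and replicate 37 lay between the other Δ/Δ tumours. The log2 fold change was 2.63 (SE 0.40), with adjusted p of 0.103 over all genes and of 0.0065 when every library had 10 or more counts, both by the quasi-likelihood test. Rbm3, the other cold-induced RNA-binding protein of the list, was at 78.7, 20.3 and 29.96 CPM against 38.3, 27.4 and 43.6 CPM, and its log2 fold change of -0.24 (SE 0.55) became 0.54 without fl/fl replicate 35.

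Of 11 glucocorticoid targets tested, 10 had a positive log2 fold change, the median was 1.47 and 6 passed the nominal threshold upward (1.7% of all genes did). Mt1 was the 12th most abundant gene of the tumours, at 1304, 1950 and 1048 CPM in fl/fl and 4820, 6419 and 2735 CPM in Δ/Δ tumours. The change of Mt1 on the log2 scale was 1.70 (SE 0.39), with an adjusted p of 0.186 in the quasi-likelihood test. Mt2 moved with its neighbour, from 122, 355 and 267 CPM to 527, 1402 and 632 CPM. In either metallothionein gene every Δ/Δ tumour was above every fl/fl tumour, and replicate 36 was the highest. Klf9, a transcription factor gene that glucocorticoids induce, was at 87.5, 156 and 83.3 CPM against 338, 406 and 266 CPM, a log2 fold change of 1.63 (SE 0.34) that was called when every library had 10 or more counts (adjusted p = 0.0432, quasi-likelihood test).

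Cdkn1a, which encodes the cell cycle inhibitor p21 and is also a p53 target, was at 226, 250 and 156 CPM in fl/fl tumours and at 566, 499 and 448 CPM in Δ/Δ tumours. Fkbp5, a chaperone gene that restrains the glucocorticoid receptor, was at 19.6, 20.8 and 5.18 CPM against 52.7, 74.1 and 33.2 CPM. Sgk1, a kinase gene, was at 104, 55.7 and 113 CPM against 310, 275 and 84.9 CPM. Replicate 37 was the lowest Δ/Δ tumour for each of Cdkn1a, Fkbp5 and Sgk1, and for Sgk1 it fell within the fl/fl range. Without replicate 37 the log2 fold changes were 3.27 for Per1, 2.60 for Cirbp, 1.97 for Mt1 and 1.77 for Klf9. The median of the glucocorticoid list per tumour was -0.63, -0.26 and -1.04 in fl/fl tumours and 0.86, 1.38 and 0.45 in Δ/Δ tumours, so that all 3 Δ/Δ tumours were above all 3 fl/fl tumours.

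**Figure D2:**
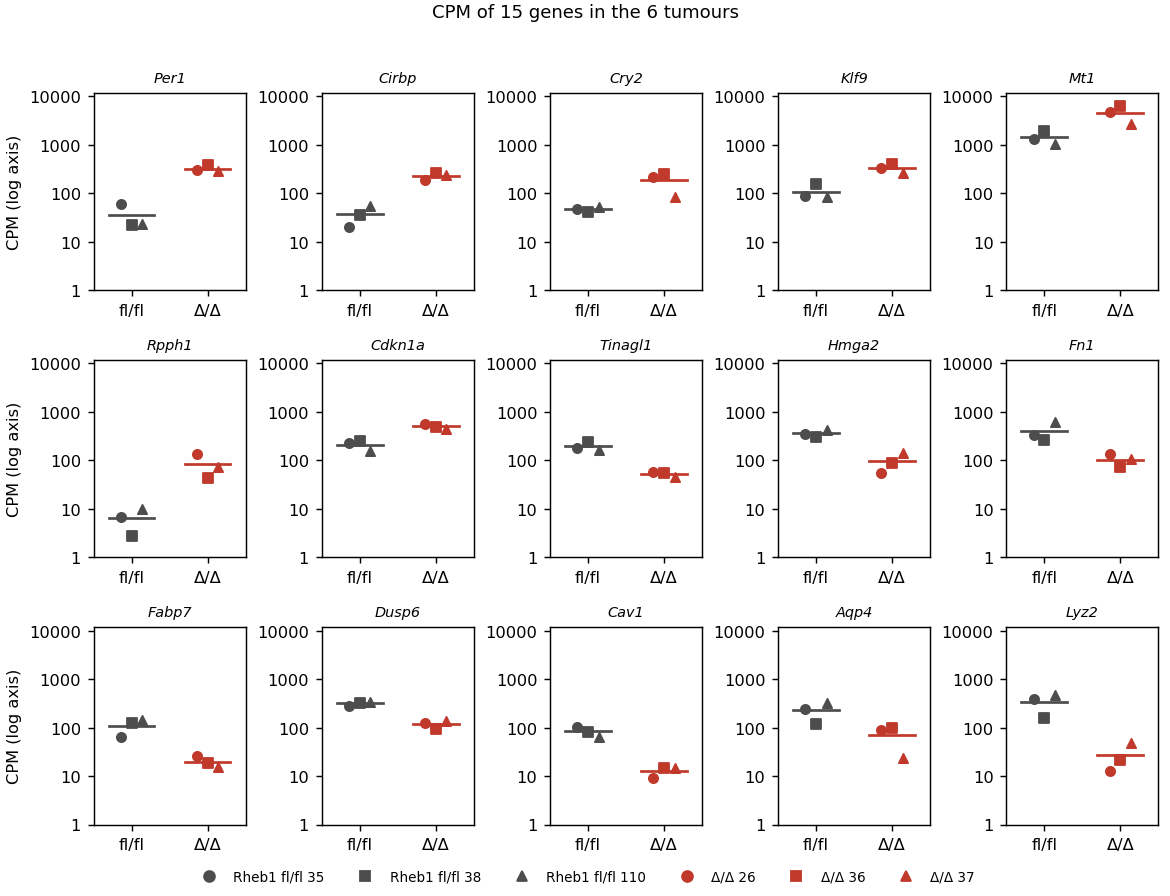
CPM (log axis) of 15 genes in each of the 6 tumours, fl/fl in grey and Δ/Δ in red, with a marker for each replicate and a line at the group mean. Per1, Cirbp, Klf9, Mt1, Rpph1 and Cdkn1a lie wholly higher in Δ/Δ tumours, as does Cry2, and Hmga2, Fn1, Fabp7, Dusp6, Cav1, Tinagl1, Aqp4 and Lyz2 lie wholly lower.

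Among the 1000 most abundant genes, 23 were higher (2.3%) and 41 lower (4.1%) at the nominal threshold, and the median log2 fold change was 0.15. Of the 41 lower, 9 were in the immune lists and 26 had over 100 CPM in sorted TAM-MG (microglia sorted from such tumours as CD11b+ CD45low cells, in the other 5 libraries of the series, scaled separately). Of the 23 higher, 0 were in the immune lists and 10 had over 100 CPM in TAM-MG. Among all 1000 these numbers were 12 and 517. Immune genes in no list, such as those of MHC class II, were also among the 41 lower. Beside Mt1, Mt2, Per1, Klf9 and Cdkn1a, the higher genes with the smallest p were Mgea5, the enzyme that removes O-linked N-acetylglucosamine from proteins, B4galt6, a lactosylceramide synthase, and Grina. Mgea5 was at 155, 152 and 202 CPM in fl/fl tumours and at 581, 342 and 356 CPM in Δ/Δ tumours. B4galt6 was at 204, 139 and 148 CPM against 464, 282 and 417 CPM, and Grina at 124, 106 and 122 CPM against 204, 297 and 233 CPM. Apod, a lipid-binding lipoprotein gene named here after its values were seen, was at 377, 336 and 368 CPM against 698, 1724 and 544 CPM, a log2 fold change of 1.45 (SE 0.42). In all 4 of Mgea5, B4galt6, Grina and Apod the groups did not overlap, which held upward for 12.3% and downward for 8.6% of the 1000 genes.

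The abundant genes that were lower included members of the glioma and progenitor list. Hmga2, on the minus strand of chr10:120361275-120476469, encodes an architectural chromatin protein of embryonic and tumour cells. It was at 357, 301 and 432 CPM in fl/fl tumours and at 53.98, 89.7 and 142 CPM in Δ/Δ tumours, with no overlap and with replicate 37 the highest of the Δ/Δ tumours. The log2 fold change was -1.93 (SE 0.38), with an adjusted p of 0.154 over all genes, 0.0213 when every library had 10 or more counts and 0.0495 without replicate 37, each by the quasi-likelihood test. Hmga2 was at a mean of only 3.35 CPM in TAM-MG. Mir763, which was also called lower, lies within Hmga2, and these unstranded counts cannot tell it from its host gene.

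Fabp7, a brain lipid-binding protein of radial glia and glioma stem-like cells, was at 63.5, 121 and 141 CPM in fl/fl tumours and at 25.4, 18.2 and 15.2 CPM in Δ/Δ tumours. The log2 fold change was -2.47 (SE 0.43), with an adjusted p of 0.123 over all genes and 0.0194 when every library had 10 or more counts (quasi-likelihood test), and its mean in TAM-MG was 0.62 CPM. Cd44, the hyaluronan receptor that marks mesenchymal glioma cells and also leukocytes, was at 292, 338 and 381 CPM against 123, 164 and 176 CPM, a log2 fold change of -1.13 (SE 0.28). Without replicate 37 the log2 fold change of Fabp7 was -2.32. Vim, the most abundant of the 18 glioma and progenitor genes, overlapped between groups at 2305 ± 576 and 1969 ± 714 CPM (SD, n = 3). Of these 18 genes, 12 had a negative log2 fold change, 3 passed the nominal threshold downward (3.0% of all genes did), 0 passed it upward, and the median was -0.27. All Δ/Δ tumours were below all fl/fl tumours for 4 of the 18, against 1571 of all genes (9.23%).

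Fn1, the extracellular matrix protein fibronectin, was at 336, 263 and 618 CPM in fl/fl tumours and at 135, 72.4 and 105 CPM in Δ/Δ tumours. The difference on the log2 scale was -1.96 (SE 0.39), with an adjusted p of 0.154 in the quasi-likelihood test, and it was also at 364 CPM in TAM-MG. Dusp6, a phosphatase gene that ERK signalling induces to limit itself, was at 278, 325 and 340 CPM against 123, 91.6 and 138 CPM, a log2 fold change of -1.42 (SE 0.29). It was at 661 CPM in TAM-MG. Fn1 and Dusp6 were called lower when every library had 10 or more counts (adjusted p = 0.0213 and 0.0466, quasi-likelihood test). Ccnd1, the G1 cyclin D1, was at 402, 312 and 291 CPM against 85.5, 135 and 168 CPM, and Eps8, a growth factor receptor substrate that bundles actin, at 311, 235 and 640 CPM against 95.9, 95.7 and 172 CPM. Syt4, a vesicle protein, was at 989, 855 and 1057 CPM against 279, 400 and 594 CPM. The groups did not overlap for Ccnd1, Eps8 or Syt4, which were named after their values were seen. Downward non-overlap held for 8.6% of the 1000 most abundant genes.

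Further genes of no list were called lower when every library had 10 or more counts, of which 7 are given here, chosen after their values were seen. Cav1, the main caveolar coat protein, was at 103, 81.5 and 65.1 CPM in fl/fl tumours and at 9.09, 14.6 and 14.8 CPM in Δ/Δ tumours, a log2 fold change of -2.70 (SE 0.43), and was at 6.16 CPM in TAM-MG. Erbb3, a neuregulin receptor, was at 154, 272 and 132 CPM against 10.9, 26.1 and 51.4 CPM, and Car2, a carbonic anhydrase, at 158, 255 and 139 CPM against 75.1, 38.7 and 43.1 CPM. In TAM-MG the mean of Erbb3 was 14.8 CPM and that of Car2 4.11 CPM. Tinagl1, a matricellular protein, was at 184, 239 and 168 CPM against 58.0, 54.9 and 44.8 CPM, and Tm4sf1, a membrane protein of endothelial and tumour cells, at 252, 164 and 304 CPM against 45.9, 104 and 65.3 CPM. Pcdh18, a protocadherin, was at 52.1, 49.6 and 109 CPM against 4.93, 2.56 and 12.6 CPM. Angptl4, a lipoprotein lipase inhibitor that hypoxia and lipid-sensing receptors induce, was at 26.7, 15.4 and 29.8 CPM against 0.987, 0.895 and 0.524 CPM, a log2 fold change of -4.89 (SE 0.93). None of the 7 genes overlapped between groups, as 9.23% of all tested genes did not in this direction. Since the 7 were picked from genes already called lower, this adds no support to the calls. Of the 54 genes called lower, 21 had over 100 CPM in TAM-MG, 21 between 10 and 100 CPM, and 12 at most 10 CPM.

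The share of lower genes was next compared between levels in sorted microglia. Of 1744 tested genes with over 100 CPM in TAM-MG, 6.65% passed the nominal threshold downward and 1.38% upward. With 10 to 100 CPM in TAM-MG these shares were 3.04 and 1.42%, with 1 to 10 CPM they were 2.86 and 1.62%, and with up to 1 CPM 1.81 and 1.66%. Among the 2033 genes without a count in TAM-MG, the balance was turned, with 1.62% lower and 3.05% higher. Put the other way, 22.7% of the 510 lower genes, 8.30% of the 289 higher genes and 10.2% of all tested genes had over 100 CPM in TAM-MG. Genes that do not code for protein made up 29.8% of the higher genes, 13.1% of the lower genes and 18.5% of all tested genes.

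The composition of the libraries by abundant RNA classes was compared next. The 10 most abundant genes took 8.81, 9.92 and 7.95% of counts in fl/fl tumours and 12.3, 11.2 and 10.4% in Δ/Δ tumours, or 8.89 ± 0.988% against 11.3 ± 0.945% (SD, n = 3). The groups did not overlap, and the two-sided exact permutation test gave p = 0.1, the smallest that 3 against 3 libraries allow. In the deposited TPM, which also scale by transcript length, the difference in this share was 0.819 percentage points instead of 2.43. Protein-coding genes took 90.8 ± 1.004% of counts in fl/fl and 88.7 ± 0.561% in Δ/Δ tumours (n = 3, exact permutation p = 0.1). Ribosomal protein genes, which mTOR complex 1 controls chiefly at translation, took 4.74, 5.88 and 4.04% against 3.80, 4.03 and 7.25% (exact permutation p = 1.0). Of 78 ribosomal protein genes tested, 60 had a positive log2 fold change and the median was 0.11, but 0 passed the nominal threshold in either direction, and the median was -0.25 without replicate 37 and -0.13 in TPM.

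**Figure D3:**
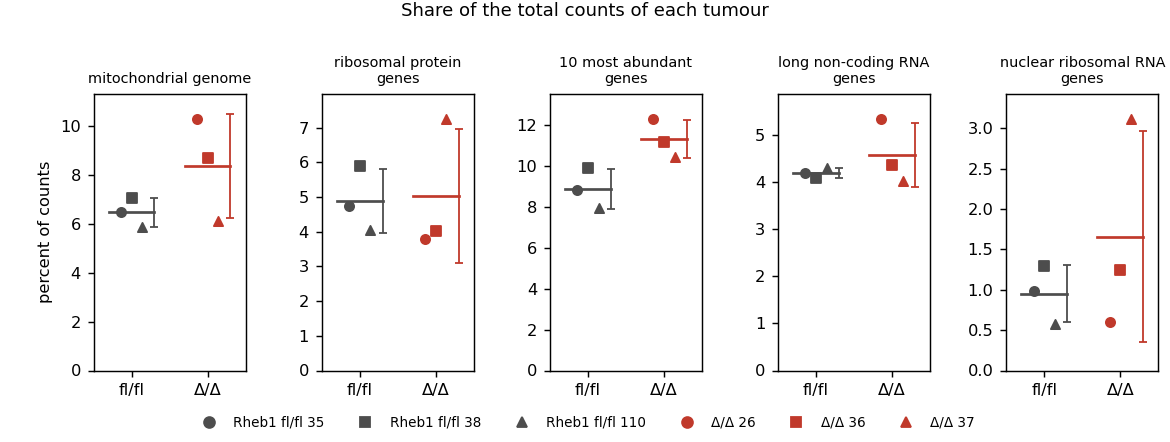
Percent of the total counts of each tumour in 5 RNA classes, with a point per tumour, a line at the group mean and a bar of 1 SD (n = 3). Only for the 10 most abundant genes do the points of the genotypes not overlap among these 5 classes, and replicate 37 is the lowest Δ/Δ tumour for the mitochondrial genome and the highest for ribosomal protein genes and nuclear ribosomal RNA.

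Among the most abundant single RNAs, mitochondrial ribosomal RNA led. mt-Rnr2, the large mitochondrial ribosomal RNA, was at 25415, 31403 and 18615 CPM in fl/fl tumours and at 34371, 37625 and 32702 CPM in Δ/Δ tumours, without overlap. Its log2 fold change of 0.47 (SE 0.36) had an adjusted p of 0.745 in the quasi-likelihood test. mt-Rnr1, the small one, was at 6553, 7557 and 4992 CPM against 8977, 9907 and 8035 CPM, also without overlap. Malat1, a nuclear long non-coding RNA, was at 11996 ± 1494 and 14286 ± 3732 CPM (SD, n = 3), and Actb, β-actin, at 5700 ± 637 and 4656 ± 343 CPM (SD, n = 3). B2m, the light chain of MHC class I, was the sole one of the 12 most abundant genes other than Mt1 to pass the nominal threshold, at 4101, 4000 and 4707 CPM against 2155, 1948 and 2479 CPM. CT010467.1, a fragment of nuclear ribosomal RNA that is present in many copies, ranged from 5588 to 32264 CPM with its maximum in replicate 37, and its counts are uncertain for that reason.

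Of 13 genes of the mitochondrial genome tested, all 13 had a positive log2 fold change (50.2% of all tested genes did) and the median was 0.49. Of these 13, 1 passed the nominal threshold upward (1.7% of all tested genes). This gene was mt-Nd5, a subunit of complex I, at 1606, 1692 and 1378 CPM in fl/fl tumours and at 4300, 2979 and 1823 CPM in Δ/Δ tumours, a log2 fold change of 0.96 (SE 0.35). The direction of mt-Nd2 and mt-Nd4, further complex I subunits, rested on replicate 26, since their log2 fold changes became -0.49 and -0.25 without it. The share of counts from the mitochondrial genome was 6.48 ± 0.594% in fl/fl tumours (SD, n = 3) and 10.3, 8.68 and 6.09% in Δ/Δ replicates 26, 36 and 37 (exact permutation p = 0.3), so that replicate 37 lay among the fl/fl tumours. Per kilobase of exon, mt-Nd1 was at a median of 8353 CPM, mt-Co1 at 1102 CPM, mt-Co3 at 4.35 CPM and mt-Co2 at 7.18 CPM over the 6 tumours. In the deposited TPM, by contrast, mt-Co3 was at 4463 to 9112 and mt-Co2 at 3093 to 7922. A stretch of the mouse mitochondrial genome has a near-identical nuclear copy, so the counts of mt-Co3, mt-Co2 and their neighbours are uncertain. Of 22 nuclear genes of the respiratory chain, 18 had a positive log2 fold change with a median of 0.28, which was 0.059 in TPM. Cycs, the electron carrier cytochrome c, passed the nominal threshold downward at 96.3, 96.4 and 97.9 CPM against 61.3, 48.8 and 48.8 CPM.

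Oligodendrocytes wrap axons in myelin, a membrane rich in lipids that myelin basic protein, encoded by Mbp, holds compact. Mbp overlapped between groups, at 1170, 1150 and 1099 CPM in fl/fl tumours and 1238, 1795 and 891 CPM in Δ/Δ tumours, and its log2 fold change of 0.20 (SE 0.32) was -0.27 in TPM. Aspa, which breaks down N-acetylaspartate for myelin lipid synthesis, was at 28.8, 12.1 and 24.7 CPM against 0.211, 1.09 and 0.995 CPM, a log2 fold change of -4.82 (SE 1.06). Ugt8a, which makes the myelin lipid galactosylceramide, was at 22.5, 32.3 and 22.8 CPM against 2.40, 0.767 and 2.20 CPM, a log2 fold change of -3.85 (SE 0.86). Opalin, a myelin membrane protein, was at 5.39, 21.4 and 18.3 CPM against 0, 2.62 and 0.89 CPM.

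Of 14 oligodendrocyte genes tested, 10 had a negative log2 fold change, 2 passed the nominal threshold downward (Aspa and Ugt8a, beside 3.0% of all tested genes), 0 passed it upward, and in 5 all Δ/Δ tumours were below all fl/fl tumours (9.23% of all genes). The median of -0.57 held its sign under every scaling and without each library in turn, from -0.66 to -0.34. The list median per tumour was 0.25, 0.21 and 0.26 in fl/fl and -0.26, -0.30 and -0.52 in Δ/Δ tumours with a pooled SD of 0.10. Mbp, Mobp, Mal and Gpr37 were the 4 members with a positive value. The summed level of the 14 genes overlapped, at 4351 to 4566 CPM in fl/fl and 3100 to 4504 CPM in Δ/Δ tumours.

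Glial precursors, the cells that give rise to oligodendrocytes, express Pdgfra, Cspg4 and Olig1. Of 13 genes tested, 7 were negative, with a median of -0.26, and 2 passed the nominal threshold downward (3.0% of all genes). Among them Gpr17, a receptor of committed precursors, was at 11.5, 8.76 and 59.9 CPM against 0, 0.575 and 1.57 CPM. Olig1, the most abundant member, was at 268, 435 and 444 CPM against 342, 219 and 742 CPM and changed direction between settings.

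Astrocytes clear glutamate through Slc1a2 and carry the water channel Aqp4 on their end-feet. Aqp4 was at 244, 115 and 314 CPM in fl/fl tumours and at 87.6, 97.1 and 23.1 CPM in Δ/Δ tumours, with a log2 fold change of -1.70 (SE 0.53), and was the only 1 of 16 astrocyte genes past the nominal threshold. Slc1a2 was at 1465, 1319 and 2721 CPM against 2236, 2249 and 468 CPM, so that replicate 37 held the lowest level of all 6 tumours and the other Δ/Δ tumours lay within the fl/fl range. Of the 16 genes, 8 had a positive and 8 a negative log2 fold change, with a median of 0.04. The median was 0.38 without replicate 37, whose own list median was -1.11.

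Neuronal genes had a median log2 fold change of 0.44, with 16 of 20 positive and 0 past the nominal threshold. Snap25, a synaptic fusion protein, was at 733, 879 and 1439 CPM against 1819, 1576 and 446 CPM. Rbfox3, the neuronal nuclear marker, was at 84.2, 121 and 143 CPM against 174, 318 and 132 CPM. The list median per tumour was -0.42, -0.0038 and -0.03 in fl/fl tumours, was 0.32 and 0.71 in Δ/Δ replicates 26 and 36 and -0.55 in replicate 37. Astrocyte, neuronal and mitochondrial lists were thus each lowest in replicate 37, and their part in the values of other lists was not tested.

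**Figure D4:**
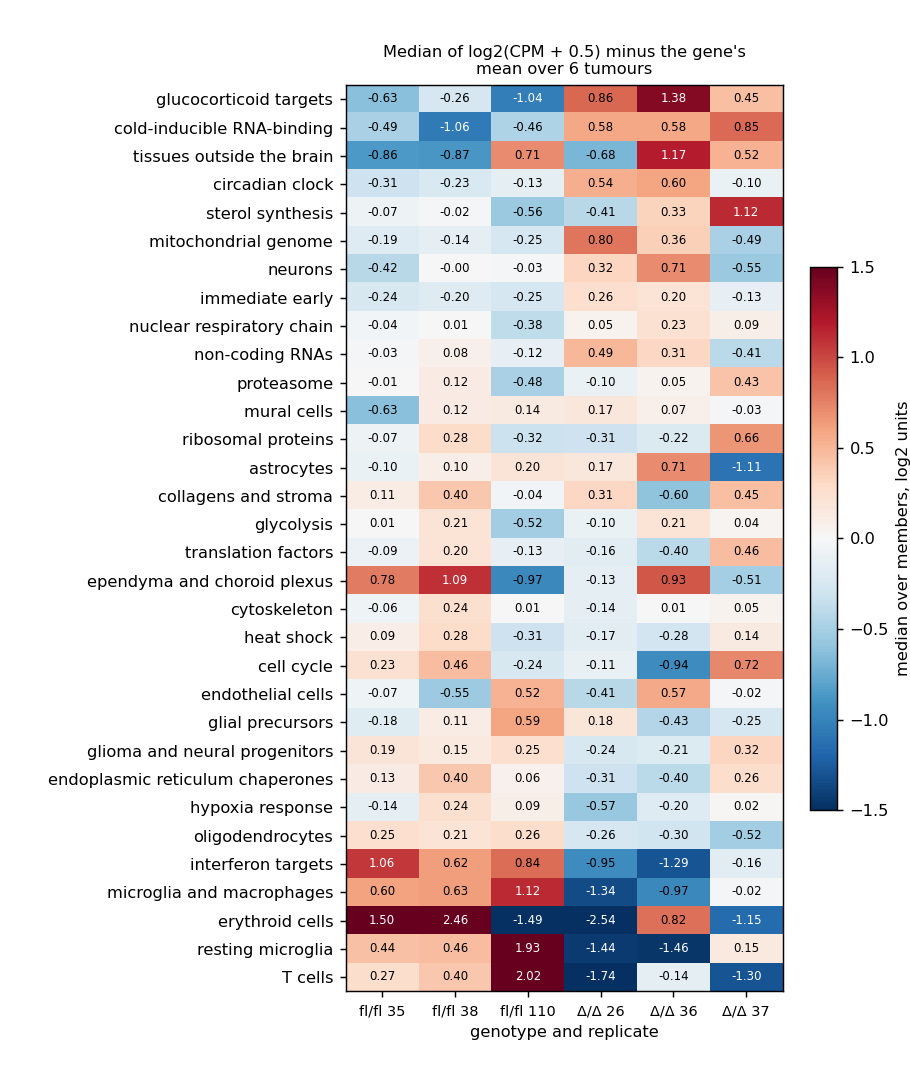
For 32 gene lists (rows, ordered by the list's median fold change), the median over members of log2(CPM + 0.5) minus the gene's mean over the 6 tumours (columns), in log2 units, with red for higher and blue for lower. The glucocorticoid and cold-inducible lists are red in all 3 Δ/Δ tumours, the latter of 2 genes through Cirbp and not Rbm3. The oligodendrocyte list is blue in all 3, and replicate 37 is nearest 0 among Δ/Δ tumours for the interferon and microglial lists.

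Tumour vessels were described by 19 endothelial and 12 tested mural genes. Plvap, the protein of endothelial diaphragms that marks leaky tumour vessels and is absent from mature blood-brain barrier endothelium, was at 4.22, 20.2 and 12.9 CPM in fl/fl tumours and at 30.3, 45.6 and 54.4 CPM in Δ/Δ tumours. On the log2 scale Plvap differed by 1.80 (SE 0.64), and it was the sole endothelial gene past the nominal threshold. Vwf, which encodes the clotting factor von Willebrand factor, was at 56.5, 12.5 and 41.7 CPM against 9.37, 16.5 and 21.2 CPM, and Flt1, a VEGF receptor, at 46.3, 69.5 and 81.4 CPM against 35.4, 49.5 and 70.7 CPM. Of the 19 genes, 9 were positive and 10 negative, with a median of -0.21 that became 0.27 without fl/fl replicate 110. Myh11, the smooth muscle myosin of arterial walls, had 0 counts in all fl/fl tumours and 6.91, 11.8 and 1.05 CPM (303 counts in all) in Δ/Δ tumours. Myh11 passed the filter on low counts only through the Δ/Δ tumours, so its difference supports nothing by itself. Rgs5, a pericyte gene, was at 107, 77.2 and 132 CPM against 75.7, 28.4 and 57.7 CPM, and 6 of the 12 mural genes were positive.

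Vegfa, the endothelial growth factor that hypoxia induces, was at 57.1, 125 and 97.1 CPM in fl/fl tumours and at 35.9, 36.5 and 42.1 CPM in Δ/Δ tumours. Its log2 fold change was -1.29 (SE 0.39), with an adjusted p of 0.28 in the quasi-likelihood test, and its mean in TAM-MG was 0.628 CPM. It was the only 1 of 14 hypoxia genes past the nominal threshold. P4ha1, a collagen prolyl hydroxylase, was at 64.4, 89.4 and 41.3 CPM against 10.8, 28.0 and 48.0 CPM. Of the 14 genes, 9 were negative with a median of -0.43, which was -0.047 in TPM and 0.26 without fl/fl replicate 38. Hif1a, the oxygen-sensing factor itself, had a log2 fold change of -0.49 (SE 0.29) in counts and 1.15 in TPM, where fl/fl replicate 38 was at 0.404 TPM and the other tumours at 9.82 to 21.9 TPM.

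Stromal genes other than Fn1 did not pass the nominal threshold. Of 19 collagens and stromal genes, 11 were positive with a median of 0.04. Sparc, the most abundant, was at 965 ± 306 and 1061 ± 256 CPM (SD, n = 3). Col1a2 was at 106, 42.2 and 17.5 CPM against 29.6, 15.6 and 31.0 CPM, while Col6a2 was at 14.9, 13.4 and 12.7 CPM against 25.2, 21.2 and 36.6 CPM without overlap. Tnc, the glioma matrix protein tenascin-C, was at 13.5, 27.7 and 20.2 CPM against 3.17, 17.3 and 6.18 CPM.

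Ependymal and choroid plexus genes varied between tumours of the same genotype. Ttr, the thyroid hormone carrier that the choroid plexus secretes, was at 1172, 1101 and 132 CPM in fl/fl tumours and at 220, 3614 and 67.6 CPM in Δ/Δ tumours, and its log2 fold change was -2.48 without replicate 36. Aqp1, the water channel of the plexus, was at 62.3, 1.66 and 2.06 CPM against 4.09, 1.60 and 2.83 CPM, with a single high tumour, fl/fl replicate 35. Kl was at 34.2, 14.9 and 2.06 CPM against 8.74, 9.52 and 0.314 CPM. Of the 11 genes tested, 0 passed the nominal threshold. The red cell genes Hbb-bs and Hba-a1 were likewise uneven within groups, with Hbb-bs at 39.4, 140 and 4.99 CPM against 1.20, 26.3 and 3.93 CPM. Genes of tissues outside the brain summed to 30.4 to 45.1 CPM in fl/fl and 40.0 to 56.8 CPM in Δ/Δ tumours.

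Genes of the cell cycle, which dividing cells express, showed no common direction. Of 26 genes, 11 were positive, the median was -0.11 and 0 passed the nominal threshold. Top2a, a topoisomerase of dividing cells, was at 412, 492 and 297 CPM in fl/fl tumours and at 301, 124 and 603 CPM in Δ/Δ tumours, and Mki67, the Ki-67 antigen, at 65.5, 52.7 and 37.5 CPM against 83.9, 38.4 and 227 CPM. For either gene replicate 37 was the highest of the 6 tumours and replicate 36 the lowest Δ/Δ tumour. Mcm4, a replicative helicase subunit, was at 29.3, 48.3 and 62.4 CPM against 19.1, 13.2 and 29.0 CPM, and Rrm2, a ribonucleotide reductase subunit, at 71.4, 69.3 and 50.7 CPM against 31.4, 31.2 and 42.8 CPM. Mcm4 and Rrm2 did not overlap between groups, as 9.23% of all genes did not in this direction.

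Sterol synthesis is switched on by SREBP2 when cells lack cholesterol and is among the programmes that mTOR complex 1 promotes. Of 16 genes tested, 14 had a positive log2 fold change, the median was 0.50 and 2 passed the nominal threshold upward (1.7% of all genes). Insig1, which restrains SREBP and was named after its values were seen, was at 19.2, 45.3 and 31.5 CPM in fl/fl tumours and at 45.9, 67.9 and 107 CPM in Δ/Δ tumours. The groups did not overlap for Insig1, although the lowest Δ/Δ tumour lay just above the highest fl/fl tumour. Replicate 37 was the highest tumour for Insig1, and without it the list median fell to 0.16.

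Of the housekeeping lists, glycolysis had a median of 0.04 with 0 of 15 genes past the nominal threshold. Aldoa, its most abundant member, was at 753 ± 237 and 949 ± 238 CPM (SD, n = 3), and Gpi1 was at 307, 291 and 177 CPM against 321, 352 and 451 CPM, without overlap. Translation factors had a median of 0.02 with 0 of 22 genes past the threshold, and Tpt1, a growth-related translation target of mTOR complex 1, was at 1227, 1846 and 1227 CPM against 1161, 897 and 1674 CPM. Proteasome genes had a median of 0.25 with 16 of 24 positive, among them Psma6 at 205, 158 and 205 CPM against 274, 240 and 272 CPM and Psmc3 at 159, 131 and 105 CPM against 215, 218 and 247 CPM. Psma5 went the other way, at 146, 120 and 155 CPM against 76.9, 107 and 78.5 CPM. Of the 24, 2 lay wholly higher in Δ/Δ tumours (7.82% of all tested genes) and 2 wholly lower (9.23%). Chaperones of the endoplasmic reticulum were negative for 13 of 14 genes, with a median of -0.35 and 0 past the threshold. Canx, the most abundant, was at 733, 724 and 775 CPM against 599, 476 and 723 CPM. The chaperone median stayed negative under each scaling, from -0.53 to -0.18, whereas those of glycolysis, translation factors and ribosomal proteins turned negative in TPM, the first pair also when libraries were scaled by size alone. Cytoskeletal genes had a median of -0.06, which was -0.44 in TPM, -0.27 without replicate 37 and 0.086 with equal mean log CPM. Among them were Pfn1 at 417, 515 and 348 CPM against 217, 211 and 344 CPM and Tmsb4x at 746, 763 and 711 CPM against 576, 656 and 328 CPM.

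Immediate early genes, which cells switch on within minutes of a stimulus, had 10 of 14 positive, a median of 0.31 and 3 past the nominal threshold upward (1.7% of all genes). Jund was at 20.3, 34.7 and 33.7 CPM in fl/fl tumours and at 59.0, 94.3 and 123 CPM in Δ/Δ tumours, Atf3 at 17.2, 30.1 and 19.4 CPM against 72.9, 40.5 and 64.7 CPM, and Fos at 79.2, 72.2 and 63.3 CPM against 163, 154 and 102 CPM. The groups did not overlap for Jund, Atf3 or Fos. Of the 14 genes, 4 lay wholly higher in Δ/Δ tumours (7.82% of all tested genes) and 2 wholly lower (9.23%). Egr1 was at 146, 137 and 168 CPM against 376, 228 and 177 CPM, just above the fl/fl range in replicate 37. Egr2 and Btg2 lay wholly lower in Δ/Δ tumours, Egr2 at 5.50, 8.67 and 10.05 CPM against 0, 3.71 and 0 CPM and Btg2 at 30.02, 47.4 and 18.7 CPM against 13.5, 13.5 and 14.1 CPM. The list median became 0.03 in TPM. Of 10 heat shock genes only Hsph1, an Hsp110 co-chaperone, passed the nominal threshold, at 142, 236 and 96.3 CPM against 61.1, 60.3 and 72.9 CPM. Hsp90ab1, the most abundant, was at 2147 ± 266 and 2502 ± 1007 CPM (SD, n = 3).

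Among structural non-coding RNAs, Rpph1, the RNA of ribonuclease P that trims transfer RNA precursors, was at 6.73, 2.74 and 9.92 CPM in fl/fl tumours and at 137, 44.1 and 74.4 CPM in Δ/Δ tumours. Its log2 fold change was 3.72 (SE 0.63), with an adjusted p of 0.123 over all genes and of 0.0135 when every library had 10 or more counts, both by the quasi-likelihood test. It was the only 1 of 12 non-coding RNAs tested that passed the nominal threshold upward. Kcnq1ot1, an imprinted antisense RNA, passed it downward at 511, 512 and 678 CPM against 344, 176 and 237 CPM, and since the library kit does not mark strand, its reads cannot be told from those of the gene it overlaps. Odf2, a centriole appendage protein, was called higher when every library had 10 or more counts, at 35.7, 48.3 and 28.0 CPM against 156, 116 and 110 CPM.

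The immune lists are given for scale. Of 16 microglial and macrophage genes all 16 had a negative log2 fold change, with a median of -1.61 and 10 past the nominal threshold downward. Of 19 interferon targets all 19 were negative, with a median of -1.41 and 14 past it. Over all tested genes, 49.8% were negative and 3.0% passed this threshold downward. Per tumour, the median of the microglial list was 0.60 to 1.12 in fl/fl tumours, -1.34 and -0.97 in Δ/Δ replicates 26 and 36 and -0.02 in replicate 37. The summed level of the 16 genes was 3215 to 5475 CPM in fl/fl and 889 to 1885 CPM in Δ/Δ tumours, highest in replicate 37, without overlap. P2ry13, a purine receptor of resting microglia, was at 29.3, 10.8 and 56.1 CPM against 1.27, 0 and 0.209 CPM. Cd2, a T cell adhesion receptor, had 203 counts over the fl/fl tumours, 152 of them in replicate 38, and 0 in the Δ/Δ tumours. Cd2 thus passed the filter on low counts only through the fl/fl tumours, so its difference supports nothing by itself. The fl/fl levels of Cd2 were low, at 0.945, 6.83 and 2.12 CPM. All 9 T cell genes tested, of 12 listed, were negative, and Cd2 was the only 1 past the nominal threshold. Only 2 of the 9 had 10 or more counts in every library. Genes this low can pass the filter through 1 group alone, which fixes their sign, so the shared sign supports nothing by itself. The list median of -2.04 was -0.79 in TPM.

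**Figure D5:**
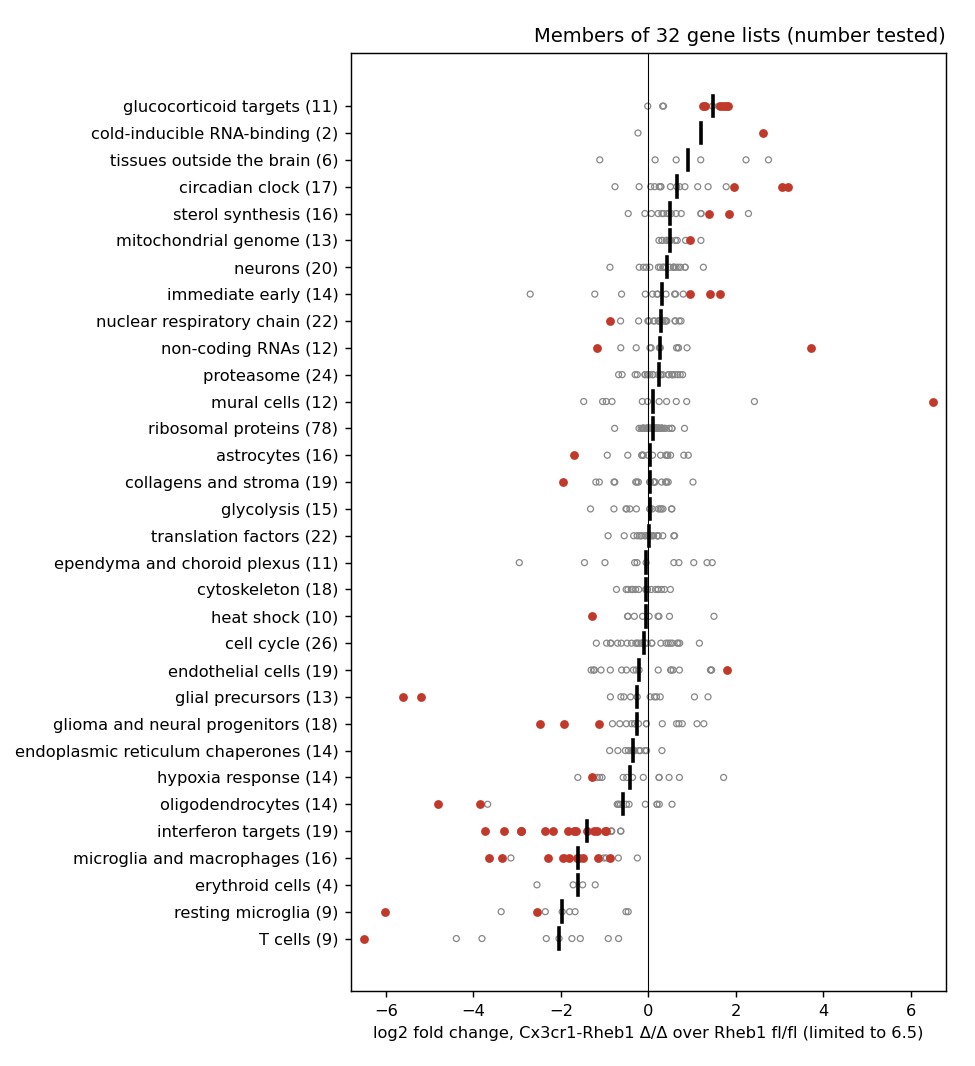
Log2 fold change (Cx3cr1-Rheb1 Δ/Δ over Rheb1 fl/fl) of each tested member of 32 gene lists, with the number tested in brackets, a bar at the list median and red for members at the nominal threshold. Values beyond 6.5 in either direction are drawn at the limit. The glucocorticoid and cold lists have the highest medians. The cold list holds 2 genes, Cirbp (2.63) and Rbm3 (-0.24), so its median rests on Cirbp. Most brain, vessel and housekeeping lists straddle 0, and the interferon and microglial lists lie wholly below 0.

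Abundance set how small a change could be seen. In the lowest decile of genes by mean CPM, the SD of the log2 fold change over genes was 2.20, and in the highest decile it was 0.548. The nominal threshold was passed upward by 2.41% and downward by 2.35% of the lowest decile, and by 2.52 and 3.70% of the highest. Between them, the third decile held 0.587% higher and 2.82% lower. The common biological coefficient of variation was 0.801, a single value fitted over all 17028 genes and not the variation at each abundance. The labels call each library a separate tumour sample, and p-values measure the spread between these samples.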

How the data were processed

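RNA was extracted from GL261 tumour tissue scraped off slides, SmartSeq2 and Nextera XT were used for the libraries, which do not mark strand, and these were sequenced as paired 75-base reads on a HiSeq4000. The authors deposited raw counts per gene and TPM values, and per the submitters' processing notes STAR, Salmon and GRCm38 were used, with tool versions not given in the sources used here. The deposited counts held 50686 genes and the deposited TPM values 12719 genes, without Mt1 or Hmga2, and 0 columns belonged to samples of other series.

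Counts were analysed in R 4.3.3 with edgeR 4.0.16: filterByExpr (minimum count 10, minimum total 15), TMM scaling and the quasi-likelihood test on the 6 bulk libraries without covariates. Calls required an adjusted p (Benjamini-Hochberg) below 0.05 and a fold of 1.5 or more. Standard errors come from the F statistic of this test. Alternatives were the likelihood ratio test, DESeq2 1.42.0, other scalings and filters, limma 3.58.1 on log2(TPM + 1) and log2(TPM + 0.1), all 11 libraries in 1 fit, and leaving out each library in turn. Shares of counts were compared by two-sided exact permutation tests. Fits were tested on simulated data. Totals of 14940787 to 21991348 counts leave counting error small for genes above a few CPM.

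The members and gene lists were chosen with earlier results of these data known, so lists are described by counts and medians without a test of their own. Named genes are Rheb, the 12 most abundant genes, the 8 higher and 8 lower genes with the smallest p among the 1000 most abundant, and in each list the most abundant member and the 2 with the smallest p (up to 4 in the clock, cold, glucocorticoid and collagen lists, and in each immune list the member with the smallest p alone). Some of these are not described in the text, and certain genes are not reported here. Others, and the list of imprinted genes, were chosen after their values were seen. Levels in TAM-MG are means of CPM in the 5 sorted libraries, normalised separately and weighting genotypes equally. Promoter windows and gene positions come from RefSeq (GRCm38.p6) and the GRCm38 annotation. Where groups share no replicate number, nothing pairs the mice.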

Additional observations from a re-analysis of the deposited data

How the results depend on the processing

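No paired analysis was possible because the genotypes share no replicate numbers. Against 0 genes called by the quasi-likelihood test, calls higher and lower in Δ/Δ tumours numbered 123 and 260 with the likelihood ratio test, 140 and 330 with DESeq2, 17 and 85 with no filter on low counts, 8 and 54 with 10 or more counts in each library, 1 and 23 with all 11 libraries, and 0 and 1 with limma on log2(TPM + 1), log2(TPM + 0.1) or log2(TPM + 1) without a filter. With 1 library left out they ranged from 0 to 2 higher and 0 to 16 lower, with 2 and 16 without Δ/Δ replicate 37 and 0 and 1 without Δ/Δ replicate 26. At the nominal threshold, 289 higher and 510 lower became 493 and 826 with DESeq2, 449 and 800 with no filter, 438 and 395 with equal mean log CPM, and 172 higher with limma on log2(TPM + 0.1). Leaving out 1 library gave 225 to 443 higher (443 without Δ/Δ replicate 37) and 338 to 732 lower (338 without fl/fl replicate 110). The cause of these differences was not tested. Genes tested numbered 12636 with 10 or more counts in each library, 17028 in the main fit and 28104 with no filter. Dispersions were fitted anew each time. The share of the 10 most abundant genes differed by 2.43 percentage points in counts and by 0.819 in TPM.

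Of 106 genes named by rule, 89 had the same sign in every setting. In TPM, the sign turned for Olig1 (-0.27), Ttr (-0.66 and, with a pseudocount of 0.1, -0.67), Sparc (-0.20), Hif1a (1.15 and 1.61), Rbm3 (0.30 in both), Hsp90ab1 (-0.078), Rpl15 (0.12), Mbp (-0.27) and Atp5b (-0.14). Atp5b, near 0 throughout, was also negative with DESeq2 (-0.0028), DESeq2's scaling in edgeR (-0.0028), library size only (-0.086), no filter (-0.014) and at least 10 counts (-0.0099), and Rora with library size only (-0.037). Leaving out 1 library gave ranges across 0 for mt-Nd2 (-0.49 to 0.68), mt-Nd4 (-0.25 to 0.59), Snap25 (-0.0092 to 0.74), Slc1a2 (-0.44 to 0.29), Olig1 (-0.45 to 0.50), Ttr (-2.48 to 1.26), Aqp1 (-3.51 to 0.61), Sparc (-0.079 to 0.39), Top2a (-0.91 to 0.17), Atp5b (-0.19 to 0.15), Rora (-0.070 to 0.23), Rbm3 (-0.59 to 0.54), Hsp90ab1 (-0.15 to 0.43), Pmel (-0.20 to 0.68), Rpl41 (-0.25 to 0.42) and Mbp (-0.10 to 0.41). Of the values of list medians under alternatives, 477 stayed within the spread between libraries and 32 moved beyond it.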

Other observations

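Imprinted genes, expressed from 1 parental allele and many of them growth regulators of embryonic tissue, were listed after H19 and Plagl1 were seen among the abundant genes at the nominal threshold, so their count supports nothing by itself. H19, a long non-coding RNA of fetal tissue and tumours, was at 979, 837 and 132 CPM in Rheb1 fl/fl tumours and at 4512, 1387 and 4798 CPM in Cx3cr1-Rheb1 Δ/Δ tumours (replicates 26, 36 and 37). Its log2 fold change was 2.46 (SE 0.68), with an adjusted p of 0.229 in edgeR's quasi-likelihood test. Plagl1, a zinc finger gene that regulates other imprinted genes, was at 573, 626 and 615 CPM against 2701, 809 and 1529 CPM, a log2 fold change of 1.47 (SE 0.41). Peg3, a further imprinted zinc finger gene, was at 482, 402 and 358 CPM against 759, 605 and 556 CPM. Meg3, a maternally expressed long non-coding RNA among the 12 most abundant genes, was at 2769, 2001 and 2869 CPM against 4291, 5563 and 2399 CPM. The groups did not overlap for H19, Plagl1 or Peg3, and overlapped for Meg3. Kcnq1ot1, a paternally expressed antisense RNA, went the other way, as described above. Of 24 imprinted genes, 17 had a positive log2 fold change with a median of 0.24, 2 passed the nominal threshold upward (1.7% of all tested genes) and 1 downward (3.0%), 4 lay wholly higher in Δ/Δ tumours (7.82% of all genes) and 2, Kcnq1ot1 and Peg10, wholly lower (9.23%). The summed level was 5598 to 6844 CPM in fl/fl tumours and 10011 to 14522 CPM in Δ/Δ tumours, of which H19, Meg3 and Plagl1 made up the greater part.

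By gene type, 0.141% of 708 processed pseudogenes passed the nominal threshold downward and 0.847% upward, against 3.19 and 1.46% of 13873 protein-coding genes. By chromosome, the downward share was smallest on chromosomes 4 (1.44%) and 9 (1.86%), among the autosomes and the X.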
